A study of Mus musculus with 6 samples.

Results

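P60 Cd300lg endothelial cells are the endothelial cells of the adult mouse sciatic nerve in which Cd300lg, a surface glycoprotein gene of capillary and venular endothelium, gave at least 2 unique molecular identifiers (UMIs, 1 per captured RNA molecule). A barcode of a P60 library was a member when it had 500 to 5000 detected genes, at least 3 UMIs of Pecam1, Cldn5 and Cdh5 together, at least 2 UMIs of Cd300lg, 0 UMIs of Slco1a4 and Degs2, at most 2 UMIs of the mural genes Pdgfrb and Rgs5, 0 UMIs of the leukocyte gene Ptprc and fewer than 10 UMIs of the fibroblast gene Dcn. The rule found 317 cells, 93, 124 and 100 in P60 replicates 1, 2 and 3, among 12602 kept P60 barcodes and 24337 kept barcodes of the whole series. They were set against 884 barrier endothelial cells of the same libraries (228, 321 and 335), which passed the same endothelial, mural, leukocyte and fibroblast limits and had at least 2 UMIs of Slco1a4, Lef1 and Degs2 together. No cell met both rules.

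Sciatic nerves had been taken on postnatal day 60 (P60) and, for comparison, on postnatal day 1 (P1), with 3 suspensions per age, each pooled from male and female animals. All mice were P0Cre-/+ : ReYFP Tg/+ : βAct-DsRed Tg/+ on the C57bl/6J background, so that Cre switches on yellow fluorescence in Schwann cells, while DsRed is driven in all cells by a beta-actin promoter. DsRed-positive cells were sorted from both ages, and Schwann cells were in part depleted from the P1 suspensions only. The mice were not perfused. The labels name no batch, and an effect of age and one of preparation cannot be told apart.

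Vessels inside the endoneurium of a nerve form a blood-nerve barrier, with tight junctions and specific carriers for glucose, amino acids and lipids, and this state depends on Wnt signalling. Vessels of the epineurium and of most other tissues lack these carriers and let solutes pass through caveolae and diaphragmed openings. Capillary endothelium of muscle, heart and fat also carries the machinery of fatty acid uptake: Gpihbp1 holds lipoprotein lipase on the luminal surface, Cd36 takes up the released fatty acids, and Fabp4 and Fabp5 carry them inside the cell.

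The kept barcodes of a library held between 20092957 and 29371559 UMIs. P60 replicate 3 stood apart, with a median of 3627 UMIs per cell against 5561 and 4982.5 in the other P60 libraries, and 16.2% of its barcodes had over 10% mitochondrial UMIs against 2.97% and 4.84%. Pairs of libraries shared 13 to 32 barcodes, and 0 barcodes were members in both libraries of a P60 pair. Whether a member's barcode was kept as another cell in another library was not counted. Doublets were limited only by the gene and marker limits of the rule, and no caller was run. The median per member was 4288, 4191.5 and 3808.5 UMIs in replicates 1, 2 and 3, below the 5677, 6395 and 4826 of the barrier cells. Summed over members, a library held 452636 to 608017 UMIs, and gene levels are given as CPM, the count scaled to a fixed library total, here the UMI sum of the population in that library.

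Members made up 23.3% of the gated endothelial cells of replicate 1 (93 of 399, 95% exact binomial interval 19.2 to 27.8%), 21.4% in replicate 2 (124 of 579, 18.1 to 25%) and 15.5% in replicate 3 (100 of 644, 12.8 to 18.6%). The mean was 20.1 ± 4.07% (SD, n = 3), and the shallow replicate 3 was lowest. Barrier cells took 54.8 ± 2.6% of the gate, and 421 cells (78, 134 and 209) met neither rule. These intervals cover counting error only.

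The levels that chose the members are a description. A member had a median of 3 Cd300lg UMIs, from 2 to 13, and 108 members sat at the limit of 2. Just outside it, the 129 cells with 1 Cd300lg UMI had a mean Gpihbp1 level of 752 CPM, against 1071 CPM in the 108 cells with 2 UMIs and 1450 CPM in the 209 cells with 3 or more. Fabp4 stood at 15441, 16752 and 25128 CPM in the same bands. The means of both genes thus rose across the edge set by Cd300lg. Prox1, a marker of lymphatic endothelium, fell over the same bands, at 125, 76.7 and 28.9 CPM. The 231 cells with 0 Cd300lg UMIs had 51.8 CPM of Prox1, so its level did not fall steadily with Cd300lg. Gpihbp1 and Fabp4 were lowest in those 231 cells, at 377 and 8901 CPM. Band means cannot tell graded cells from a changing mix of cells. On the barrier side, 4 cells with at least 2 Cd300lg UMIs had 1 UMI of Slco1a4 and Degs2. Another 58 had 2 or more, and these had a mean Fabp4 level of 37.6 CPM and a mean Slc2a1 level of 1322 CPM. The Dcn limit removed 21 cells, and the endothelial limit left out 3 cells with 2 UMIs of its genes, beside 5 members at exactly 3.

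Gpihbp1, which the rule did not use, was found in 254 of 317 members (80.1%), in 78.5%, 82.3% and 79% of those in replicates 1, 2 and 3. With each cell thinned to 1500 UMIs it was found in 66.9 ± 2.12% of members (79.9% unthinned, 316 of 317 cells deep enough), 31.2 ± 4.52% of barrier cells (53.9% unthinned) and 0.896 ± 0.491% of P60 fibroblasts (3.24% unthinned, median 4745 UMIs), which were defined by at least 10 Dcn UMIs and no endothelial UMI and should lack it. Pecam1, a rule gene, was found in 96.2% of members. Gpihbp1 was thus found in most members but not in every one, and in a part of the barrier cells too.

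The members were not of a single vessel type. Among them 34 cells (10.7%) had a UMI of Prox1 or Mmrn1, markers of lymphatic endothelium, with 11, 12 and 11 cells in the 3 libraries. Another 63 cells (19.9%; 16, 26 and 21) had a UMI of Ackr1 or Selp, markers of venular endothelium, 220 cells (69.4%; 66, 86 and 68) had neither, and 0 cells had both. These marks were chosen after the values had been seen, and the split is given without a test. The median depth was 6386 UMIs in the Prox1 or Mmrn1 cells, 5721 in the Ackr1 or Selp cells and 3634 in the rest.

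The kinds of cell differed for single genes. Cd36 was found in 97.3% of the 220 cells with neither mark, in 100% of the Ackr1 or Selp cells and in 20.6% of the Prox1 or Mmrn1 cells, at 2094 ± 650, 1466 ± 168 and 125 ± 160 CPM (mean ± SD, n = 3 libraries). Plvap, a diaphragm protein gene, was found in 61.4%, 98.4% and 47.1%, at 2674 ± 843, 2366 ± 778 and 439 ± 436 CPM. Rgcc, a cell cycle regulator gene strong in capillary endothelium, had levels of 1049, 1113 and 1313 CPM in the cells with neither mark, against 0, 23.1 and 96.6 CPM in the Ackr1 or Selp cells and 0, 27.4 and 43.7 CPM in the Prox1 or Mmrn1 cells. It was found in 88.2%, 11.1% and 5.88% of the 3 kinds of cell, although the first kind was the shallowest. Aqp7, a glycerol channel, was found in 57.7%, 14.3% and 2.94%. Esm1, a secreted proteoglycan of capillary and tip cells, was found in 51 of the 220 cells (23.2%) and in 0 of the 63 and 0 of the 34 others.

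Gpihbp1 did not follow the same division. It was found in 88.6% of the 220 cells, in 46% of the Ackr1 or Selp cells and in 88.2% of the Prox1 or Mmrn1 cells, at 1854 ± 127, 357 ± 207 and 872 ± 264 CPM. Fabp4 was high in the first and second kind (26896 and 23956 CPM) and low in the lymphatic-marked cells (102, 2097 and 4434 CPM). Some venous genes were higher in the Ackr1 or Selp cells. Vwf, which encodes von Willebrand factor, stood at 658 ± 100 CPM against 57.5 ± 33.9 CPM in the 220 cells. Lrg1, a venular glycoprotein gene, stood at 2509 ± 377 against 477 ± 197 CPM, with 1018 ± 533 CPM in the Prox1 or Mmrn1 cells. Nr2f2, another venous marker, stood at 265 ± 63 against 79.9 ± 6.69 CPM, but was highest in the Prox1 or Mmrn1 cells (612 ± 206 CPM). The venous marker Aplnr was not higher, at 292 ± 19.3 against 336 ± 136 CPM. In the Prox1 or Mmrn1 cells, the lymphatic receptor gene Flt4 was found in 85.3%, Pdpn in 70.6% and the chemokine gene Ccl21a in 94.1%. Ccl21a has near-identical copies, and its reads may be split among them.

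**Figure D1:**
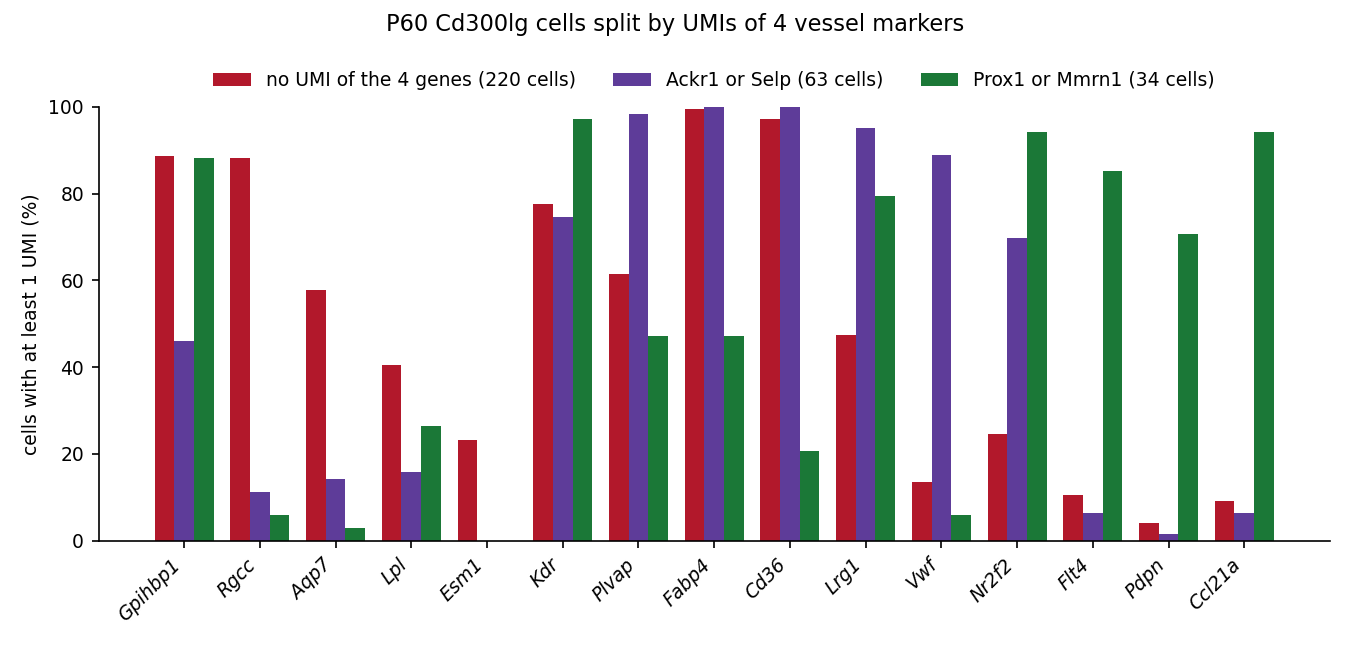
Percent of P60 Cd300lg cells with at least 1 UMI of each gene, for the 220 members with no UMI of Prox1, Mmrn1, Ackr1 or Selp, the 63 with Ackr1 or Selp, and the 34 with Prox1 or Mmrn1, summed over the 3 libraries. Rgcc falls from 88.2% to 11.1% and 5.88%, Vwf is highest in the second kind at 88.9%, and Ccl21a in the third at 94.1%.

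How members differ from the barrier endothelium of the same nerves was tested on summed counts with edgeR's quasi-likelihood test, with the library as a block. Both populations were chosen by counts in these cells, so the test says only how regularly the chosen cells differed over the 3 libraries. Of 10396 genes, leaving out the 11 genes of the rules, 1219 (11.7%) were higher and 1348 (13.0%) lower in members at an adjusted p below 0.05, with a median change over all genes of -0.01 on the log2 scale. Without the library block the counts were 792 and 717. Without P60 replicate 3 they were 1055 and 1127.

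Genes of fatty acid uptake and handling were higher in members: 15 of the 22 tested rose, 0 fell, and the median change of the list was 1.56 (log2), with 15 of 21 higher when the lymphatic-marked cells were left out. Gpihbp1 (chr15:75596628-75599481, plus strand, GRCm38) stood at 1365, 1456 and 1206 CPM in members of replicates 1, 2 and 3, and at 413, 403 and 268 CPM in barrier cells. The groups did not overlap, and the change was 1.83 ± 0.08 (log2 ± SE, edgeR adjusted p = 1.1e-15). Fabp4 (chr3:10204088-10208576, minus strand) had 22154, 21042 and 23807 CPM in members and 149.7, 101 and 240.0 CPM in barrier cells. Its change was 7.08 ± 0.12 (edgeR adjusted p = 4.7e-24), and every member library lay far above every barrier library. Cd36 (chr5:17781690-17888801, minus strand) had 1402, 1429 and 2050 CPM against 19.4, 19.5 and 41.4 CPM, a change of 5.87 ± 0.11 (edgeR adjusted p = 1.1e-23).

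Other steps of the pathway moved with these carriers. Fabp5, the second fatty acid binding protein, had 757, 639.8 and 663 CPM in members against 4.24, 5.07 and 6.62 CPM (log2 change 6.90, edgeR adjusted p = 1.4e-22). Aqp7 had 254, 171 and 221 CPM against 1.82, 0.423 and 1.1 CPM (7.46, edgeR adjusted p = 1.6e-18). Among the transcription factors, Pparg, the nuclear receptor for fatty acids, had 60.8, 51 and 68.5 CPM against 3.03, 4.65 and 5.52 CPM (3.63 ± 0.29, edgeR adjusted p = 1.5e-10). Tcf15, the partner of Meox2 in heart capillaries, changed by 4.76 (edgeR adjusted p = 1.3e-17).

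Lpl, the lipase that Gpihbp1 holds, is made mainly by fat and muscle cells. It had 232, 174 and 261 CPM in members and 7.88, 6.34 and 11.6 CPM in barrier cells, a change of 4.60 ± 0.17 (edgeR adjusted p = 2.1e-17). P60 fibroblasts had a mean of 380.4 CPM. After thinning, Lpl was found in 23.7 ± 4.17% of members, 30.7 ± 2.35% of fibroblasts and 0.898 ± 0.598% of barrier cells. The adipocyte list moved with Lpl: 2 of 2 tested genes were higher in members by edgeR and 1 by DESeq2, and the list summed to 52.6 to 161 CPM in members, 3.31 to 6.67 CPM in barrier cells and 32 to 65.7 CPM in fibroblasts. The 2 genes were Car3 (5.05 ± 0.33, edgeR adjusted p = 4.2e-12) and Cdo1, while Adipoq, Plin1 and Cidec, which define fat cells, were too low to test. The part of fat cell RNA in the lipid genes was not tested. The fibroblast list gave no call between the populations, with 0 of 6 genes called by edgeR, 0 at an unadjusted p below 0.05 and 0 by DESeq2, and a summed level of 453 to 688 CPM in members and 438 to 570 CPM in barrier cells.

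Genes of diaphragms, caveolae and water channels gave 8 higher and 2 lower of 12, with a median change of 0.55. Plvap, the protein of endothelial diaphragms, had 2544, 2872 and 1368 CPM in members against 39.4, 25.8 and 22.1 CPM, a change of 6.23 ± 0.12 (edgeR adjusted p = 1.3e-23). Replicate 3 was the lowest of the member libraries and still far above all barrier libraries. Aqp1, a water channel, rose by 5.48 (edgeR adjusted p = 7.2e-23), whereas Car4, a membrane carbonic anhydrase, was lower, with 199.7, 110.2 and 261 CPM against 1081, 1121 and 728 CPM (-2.47 ± 0.17, edgeR adjusted p = 6.4e-12).

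The carriers of the barrier were low in members. Of 15 tested barrier transporters 13 were lower, 1 was higher, and the median change was -2.76. Their summed level was 1564 to 1723 CPM in members and 7272 to 7736 CPM in barrier cells. It was also low, 1804 to 2073 CPM, in the P60 endothelial cells of the gate that met neither rule. Slc2a1, the glucose carrier GLUT1 (chr4:119108711-119137983, plus strand), had 21.7, 47.7 and 30.9 CPM in members and 1796, 1652 and 1642 CPM in barrier cells, a change of -5.68 ± 0.13 (edgeR adjusted p = 1.2e-21). Mfsd2a, the carrier of lysophospholipids, had 2.17, 3.29 and 0 CPM against 461, 413 and 288 CPM (-7.63 ± 0.26, edgeR adjusted p = 2.7e-18). Slc7a5, the large neutral amino acid carrier, had 13, 3.29 and 0 CPM against 358, 329.8 and 366 CPM (-6.10, edgeR adjusted p = 3.0e-16). The organic anion carrier Slco1c1 gave 0 UMIs in all members, which with a floor of 3 counts over the group makes it at least 17.9-fold lower.

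The efflux pumps kept a part of their level. Abcg2 had 714, 799 and 588 CPM in members against 1973, 2083 and 1650 CPM (-1.52 ± 0.07, edgeR adjusted p = 2.1e-15), and Abcb1a changed by -3.13 ± 0.10 (edgeR adjusted p = 7.2e-19). The 1 higher gene was Slc16a1, a monocarboxylate carrier, with 41.2, 14.8 and 33.1 CPM against 4.24, 4.23 and 3.86 CPM (2.65 ± 0.39, edgeR adjusted p = 6.9e-06), and fibroblasts had 96.5 CPM of it.

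To show the sequences in front of genes that went opposite ways, the 250 bases before the RefSeq gene start (GRCm38.p6) are printed for Cd36 (chr5:17835897-17836146, minus strand), Rgcc (chr14:79301636-79301885, minus strand) and Mfsd2a (chr4:122961189-122961438, minus strand). For Cd36 this stretch lies inside the longer GENCODE span given above. It precedes the RefSeq start and not the outermost start of the gene. Capitals mark AGGTCA, the half-site of nuclear receptors such as PPARs, and CTTTGA, the core of TCF and LEF sites, on either strand.
Cd36: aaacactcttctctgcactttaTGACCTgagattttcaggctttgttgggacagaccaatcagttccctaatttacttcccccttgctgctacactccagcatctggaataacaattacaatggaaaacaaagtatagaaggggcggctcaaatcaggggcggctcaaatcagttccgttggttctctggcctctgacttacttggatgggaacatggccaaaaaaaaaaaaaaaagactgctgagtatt
Rgcc: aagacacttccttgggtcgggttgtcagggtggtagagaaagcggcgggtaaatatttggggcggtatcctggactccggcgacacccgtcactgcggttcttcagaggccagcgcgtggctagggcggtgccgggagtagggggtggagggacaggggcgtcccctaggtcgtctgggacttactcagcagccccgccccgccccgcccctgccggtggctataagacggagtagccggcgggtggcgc
Mfsd2a: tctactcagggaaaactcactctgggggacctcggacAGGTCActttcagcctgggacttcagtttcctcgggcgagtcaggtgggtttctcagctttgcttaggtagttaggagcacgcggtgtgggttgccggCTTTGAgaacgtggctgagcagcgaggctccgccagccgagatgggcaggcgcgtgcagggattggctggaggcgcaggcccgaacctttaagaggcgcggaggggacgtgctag
AGGTCA occurs once before Cd36, in reverse, and once before Mfsd2a, CTTTGA occurs once before Mfsd2a, and Rgcc has 0 matches. AGGTCA was present in 14% and CTTTGA in 13.9% of the 32536 promoters in the table. For the lipid list, where 13 of 22 genes were matched, 6 of 19 promoters held AGGTCA and 2 held CTTTGA. For the barrier transporters, where 16 of 19 genes were matched, 4 of 24 held AGGTCA and 6 held CTTTGA. For the Wnt pathway list described below, where 9 of 17 genes were matched, 1 of 11 held AGGTCA and 1 held CTTTGA. A match of these letters is a description and not a site.

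Genes of the Wnt pathway of barrier endothelium gave 9 lower and 4 higher of 14, with a median change of -1.16. Axin2, a general Wnt target, had 0, 3.29 and 2.21 CPM in members against 104, 85.8 and 129 CPM (-5.72 ± 0.36, edgeR adjusted p = 1.9e-12). Tnfrsf19 gave 0 UMIs in members and was at least 30-fold lower than the 59.4, 53.7 and 66.2 CPM of barrier cells. The transcription factor genes Foxq1 and Tcf7 changed by -6.93 and -5.22 (edgeR adjusted p = 3.8e-12 and 9.9e-10). The 4 higher genes were the membrane protein gene Itm2a (1.89), the repressor Tcf7l1 (1.44), the receptor Fzd4 (0.53) and its partner Tspan12 (0.91).

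Junction genes were mixed, with 6 lower and 2 higher of 13. The tricellular junction gene Lsr had 13, 21.4 and 2.21 CPM in members against 267, 259.6 and 168 CPM (-4.23 ± 0.21, edgeR adjusted p = 1.8e-14), and Tjp1, which encodes ZO-1, had 111, 127 and 179 CPM against 309.7, 304 and 397 CPM (-1.36 ± 0.11, edgeR adjusted p = 1.7e-10). Cldn5, a rule gene and so given without a test, stood at 948, 984 and 1184 CPM in members and at 6789, 6488 and 5480 CPM in barrier cells.

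The list of VEGF, angiopoietin and apelin genes, which holds receptors and ligands, gave 7 higher and 2 lower of 12 (median 0.72). The VEGF receptor Kdr had 471, 426 and 654 CPM in members against 145, 162 and 174 CPM (1.59 ± 0.10, edgeR adjusted p = 1.1e-12), and its co-receptor Nrp1 changed by 2.39 (edgeR adjusted p = 2.1e-16). Aplnr, the apelin receptor, had 378, 262 and 208 CPM against 24.2, 24.5 and 27 CPM (3.37 ± 0.15, edgeR adjusted p = 1.2e-15), while its ligand Apln was lower, at 4.34, 6.58 and 11 CPM against 65.4, 77 and 27 CPM (-3.07 ± 0.33, edgeR adjusted p = 4.8e-08). Of 14 basement membrane genes 7 were higher and 4 lower, among them Col15a1 (3.95, edgeR adjusted p = 5.3e-17) and Lamb1 (3.48, edgeR adjusted p = 6.8e-11).

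Of the venous markers 7 of 10 were higher, 1 was lower, and the median change was 2.33. Their summed level was 2198 to 2671 CPM in members and 852 to 940 CPM in barrier cells. In the P60 endothelial cells of the gate that met neither rule it was 2900 to 3493 CPM. Selp, the adhesion receptor P-selectin, had 82.5, 77.3 and 234 CPM in members against 0, 0.846 and 1.1 CPM (7.27 ± 0.32, edgeR adjusted p = 9.9e-16). Vwf went the other way, with 182, 238 and 170.1 CPM against 442, 489.7 and 515 CPM (-1.35 ± 0.10, edgeR adjusted p = 8.2e-11). Arterial markers gave 6 lower and 2 higher of 12, with Bmx at 6.51, 6.58 and 30.9 CPM against 215, 194 and 211 CPM (-3.96 ± 0.24, edgeR adjusted p = 7.1e-13).

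All 7 lymphatic markers were higher, with a median change of 6.57. Their summed level was 6020 to 9154 CPM in members and 40.2 to 55.8 CPM in barrier cells. It was higher still, 9844 to 15745 CPM, in the P60 endothelial cells of the gate that met neither rule. Lyve1 had 645, 288 and 209.9 CPM in members against 0.606, 1.27 and 1.1 CPM (8.25 ± 0.23, edgeR adjusted p = 2.9e-20), and Mmrn1 changed by 7.77 (edgeR adjusted p = 1.4e-19). There were 43 members (13.6%) with at least 2 UMIs of the lymphatic list. Since that list chose them, its level without them is no test. Over all genes, 1037 were higher and 1194 lower when such cells were left out of members and barrier cells alike. This kept 214, 314 and 329 barrier cells in replicates 1, 2 and 3.

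By the rule for naming genes, the largest rises with a mean of at least 50 CPM were those of Pard6g, Ccl21a, Lyve1, Mmrn1, Aqp7, Selp, Fabp4, Btnl9, Fabp5, Col13a1, Plvap and Fgl2, from 9.16 down to 6.05 (log2). Pard6g, a polarity gene, stood at 0, 3.84 and 0 CPM in the members that were not lymphatic-marked. Btnl9, a butyrophilin-like gene, had 145, 113 and 209.9 CPM in members against 0, 1.27 and 1.65 CPM (edgeR adjusted p = 2.3e-16), and the transmembrane collagen gene Col13a1 had 143, 135 and 92.8 CPM against 0.606, 2.11 and 1.1 CPM (6.33 ± 0.28, edgeR adjusted p = 1.4e-15). The largest falls were those of Tnfrsf19, Mal, Mfsd2a, Paqr5, Foxq1, Tmeff1, Hspb8, Slc7a5, Slc16a4, Spock2, Prom1 and Grb14. Mal, a raft proteolipid gene, had 15.2, 6.58 and 2.21 CPM in members against 1880, 1913 and 1892 CPM (-7.97 ± 0.17, edgeR adjusted p = 9.4e-23).

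**Figure D2:**
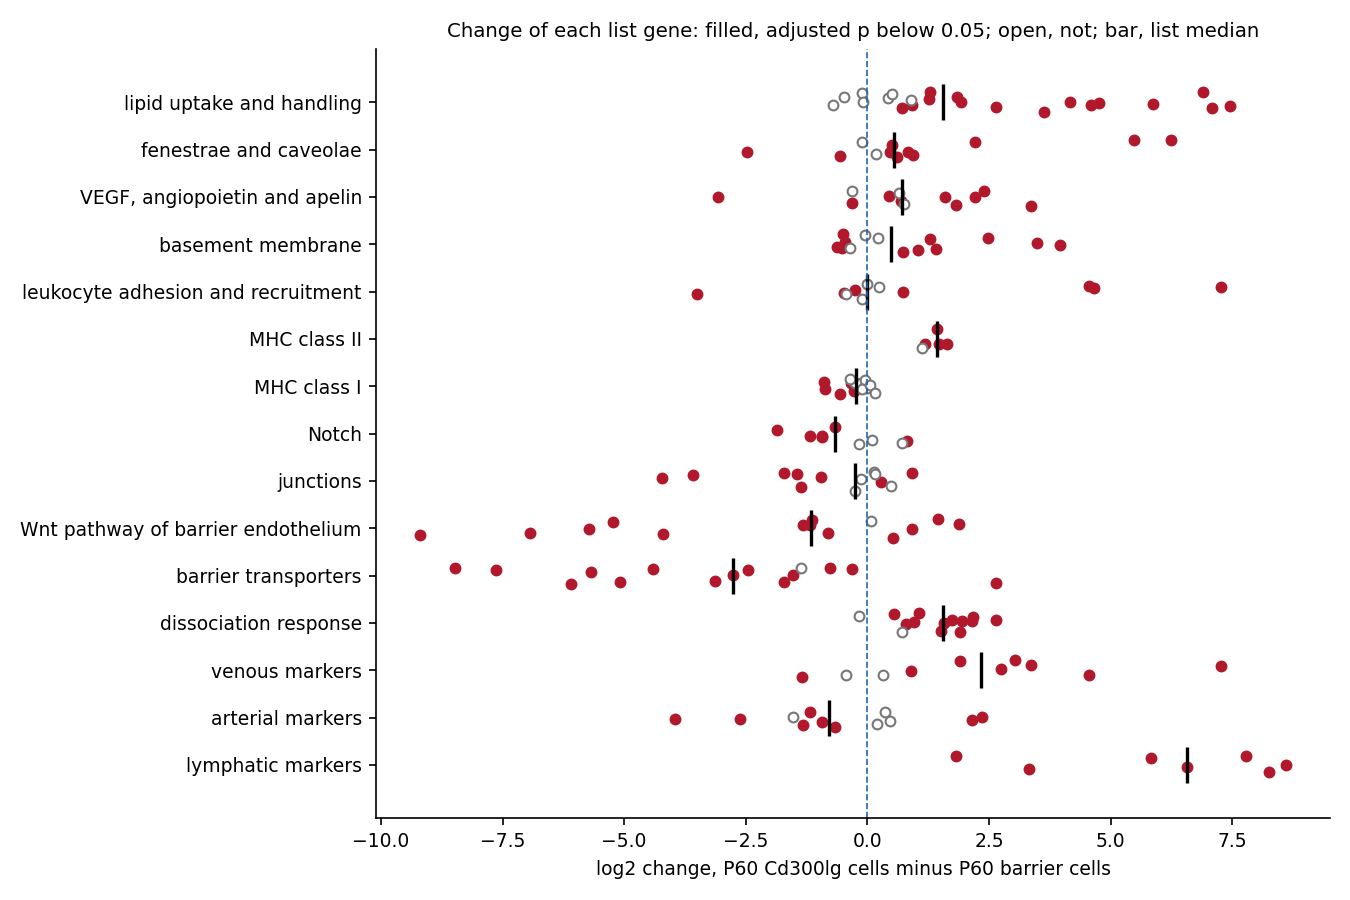
Log2 change of each tested list gene, P60 Cd300lg cells minus P60 barrier cells, on the x axis, with 1 row per list; filled points passed an edgeR adjusted p below 0.05, open points did not, and the black bar is the list median. The lipid list has its median at 1.56 with 0 genes lower, the barrier transporters theirs at -2.76 with 1 gene higher, and all 7 lymphatic markers lie to the right of 0.

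Dissociation genes and genes of other cell types moved with this comparison, and their part in the results was not tested. Of 14 genes of the dissociation response 12 were higher and 0 lower (median 1.55), for example Fos, with 1849, 1743 and 1812 CPM in members and 383, 275 and 521 CPM in barrier cells (2.16 ± 0.10, edgeR adjusted p = 3.3e-15). All 6 tested immune markers were higher (summed level 160 to 458 CPM in members, 47.4 to 73.9 in barrier cells; Ptprc at 0 by the rule), and 4 members with at least 5 C1q UMIs held 112 of 132, 28 of 63 and 46 of 55 of the C1q UMIs of replicates 1, 2 and 3. All 4 tested erythroid genes were higher by edgeR and 0 by DESeq2, with a summed level of 4.42 to 12444 CPM in members and 15.8 to 2387 CPM in barrier cells; 2 members of replicate 2 held 7526 of its 7550 haemoglobin UMIs, and without this library 1 erythroid gene could be tested and it was lower. Of 6 cell cycle genes 5 were higher and 1 lower, and without replicate 2 the count was 0 higher and 1 lower of 2. The 3 tested Schwann cell markers gave 0 calls by edgeR, 0 at an unadjusted p below 0.05 and 0 by DESeq2. The mural list summed to 668 to 829 CPM in members and to 1646 to 2579 CPM in barrier cells, and of its 5 tested genes 2 were higher and 1 lower in members. The lower gene was Acta2, smooth muscle actin (-4.87 ± 0.12, edgeR adjusted p = 6.2e-21), and the higher genes were the potassium channel gene Kcnj8 (3.76 ± 0.56, edgeR adjusted p = 7.9e-06) and Des, desmin (2.58 ± 0.50, edgeR adjusted p = 2.6e-04). Both tested adipocyte genes were higher as well, as given beside Lpl. The perineurial list summed to 189 to 265 CPM in members and to 2003 to 2146 CPM in barrier cells, most of it Slc2a1, which barrier endothelium shares with perineurial cells.

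Antigen presentation genes showed small differences from barrier cells. Of 14 class I genes 0 were higher and 6 lower (median -0.23), and of 5 class II genes 4 were higher (median 1.42). Cd74, the invariant chain, had 211, 109 and 252 CPM against 60.6, 70.6 and 60.7 CPM (1.42 ± 0.18, edgeR adjusted p = 4.4e-07). Class II genes are also carried by immune cells, whose markers were higher in the same comparison. With stricter limits on the genes of other cell types Cd74 stood at -0.62 (edgeR adjusted p = 0.72).

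**Figure D3:**
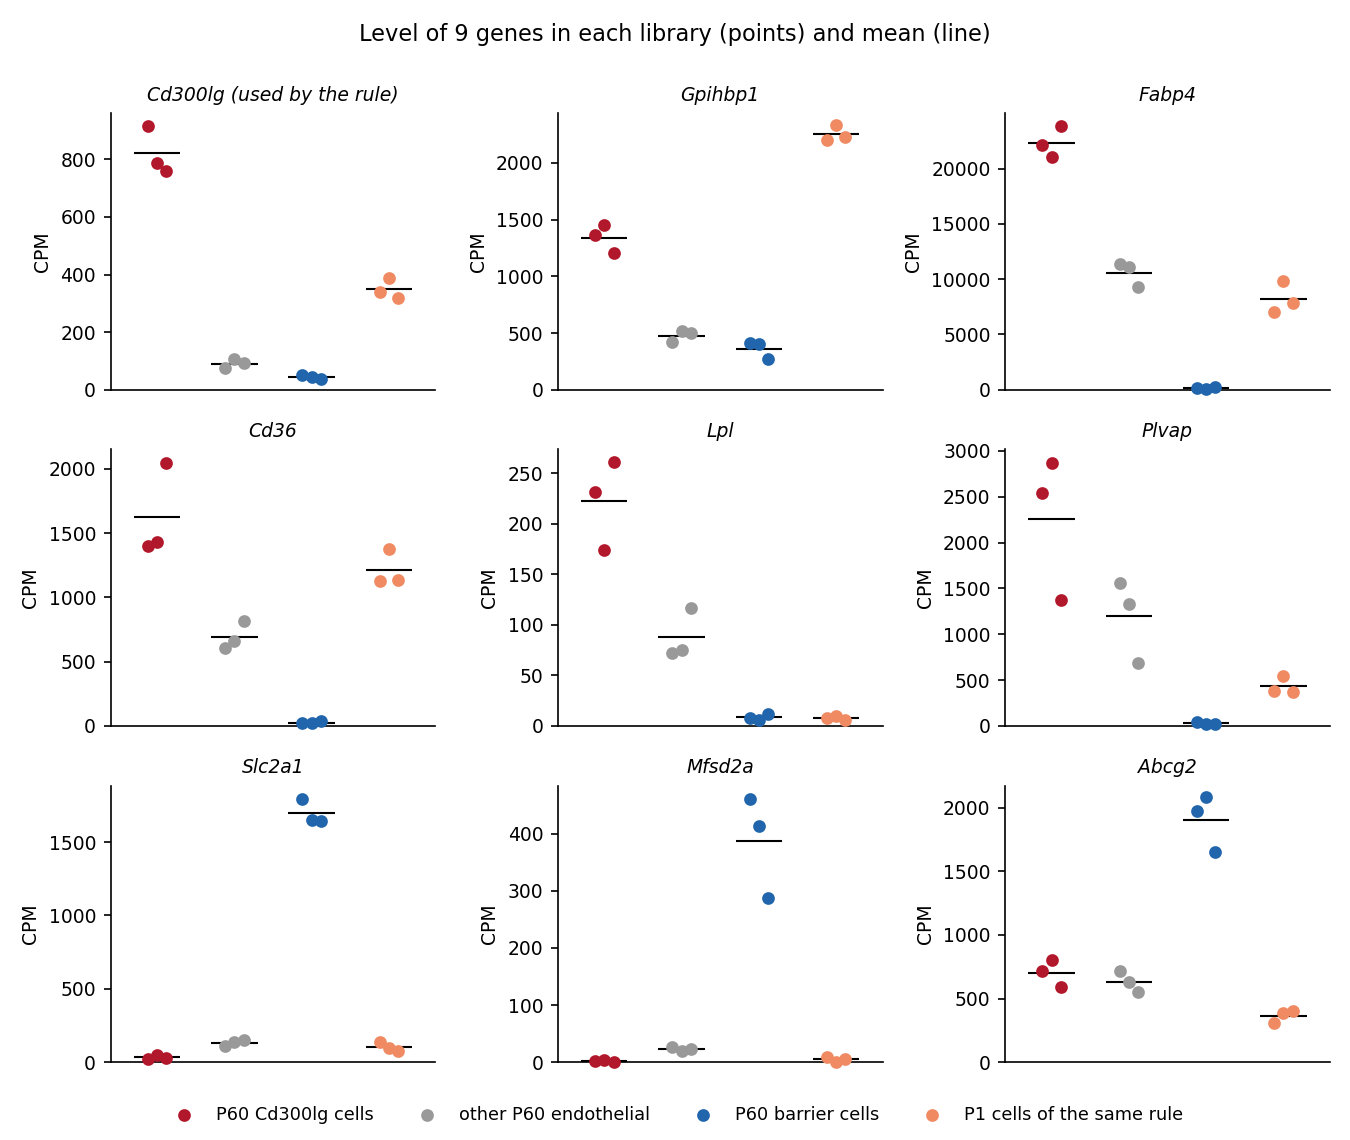
Level in CPM of 9 genes in each library (points) with the mean of 3 libraries (line), for P60 Cd300lg cells, other P60 endothelial cells, P60 barrier cells and P1 cells of the same rule. Gpihbp1 is 1206 to 1456 CPM in P60 Cd300lg cells and 268 to 413 CPM in barrier cells, Slc2a1 is 21.7 to 47.7 CPM against 1642 to 1796 CPM, and Lpl in P1 cells is 5.76 to 9.97 CPM.

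The P1 libraries, which the rule had not used, were asked whether Cd300lg goes with these genes there too. In the P1 gate 200 endothelial cells (69, 66 and 65) had at least 2 Cd300lg UMIs and 356 (103, 130 and 123) had none, while 2 cells passed the barrier rule, so that a barrier population could not be compared at P1. The cells with Cd300lg were deeper, with a median of 9205.5 against 5164.5 UMIs. With the library as a block, 354 of 9238 genes (3.83%) were higher in the cells with Cd300lg and 391 (4.23%) lower, with a median change over all genes of 0.01. By library size alone, a scaling chosen after seeing the data, the counts were 268 and 499. By DESeq2 they were 82 and 99, and with cells thinned to 1500 UMIs 54 and 62, so the number of calls depended strongly on depth and tool. Without P1 replicate 1 they were 203 and 215, and without P1 replicate 2 213 and 247.

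Part of the lipid list also rose with Cd300lg at P1, with 8 of 22 genes higher, 2 lower and a median change of 0.30. The changes of the list ran from -3.53 to 1.40, so the largest was a fall. Cd36 had 1170, 1378 and 1148 CPM in the cells with Cd300lg and 500.3, 502 and 466 CPM in those without, a change of 1.40 ± 0.09 (edgeR adjusted p = 5.7e-20). Gpihbp1 had 2214, 2335 and 2222 CPM against 990.3, 1624 and 1233 CPM (0.91 ± 0.08, edgeR adjusted p = 1.7e-13). Rgcc changed by 1.26, Fabp4 by 1.01, Scarb1, an HDL receptor, by 1.29 and Aqp7 by 1.29 (edgeR adjusted p = 5.9e-18, 2.8e-20, 5.2e-15 and 1.8e-07). All 6 of these genes were among the rises, and their groups did not overlap. The share of all tested genes without overlap was not counted. Lpl did not pass the test, with 8.1, 9.97 and 5.69 CPM against 5.83, 14.9 and 10.8 CPM (-0.33 ± 0.49, edgeR adjusted p = 0.82). Plvap and Kdr were also higher (0.92 and 0.84, edgeR adjusted p = 3.0e-09 and 5.5e-09).

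The cells without Cd300lg at P1 carried arterial genes. Of 12 arterial markers 9 were lower in the cells with Cd300lg, 0 were higher, and the median change was -2.28. The gap junction gene Gja4 had 117, 91.4 and 72.5 CPM in the cells with Cd300lg against 548, 466 and 549 CPM (-2.41 ± 0.13, edgeR adjusted p = 9.7e-24), and the Notch ligand Jag1 had 17.5, 13.3 and 22.8 CPM against 108, 129 and 114 CPM (-2.61 ± 0.21, edgeR adjusted p = 4.4e-15). The largest falls were those of Cytl1, Mgp, Emp2, Tmem100, Eln and Fbln5. Mgp, the matrix Gla protein gene, had 5.4, 8.31 and 7.11 CPM against 318, 647 and 528 CPM (-6.05 ± 0.20, edgeR adjusted p = 3.0e-34), and Eln, elastin, had 112, 74.8 and 76.8 CPM against 1285, 1861 and 1733 CPM (-4.11 ± 0.12, edgeR adjusted p = 1.0e-35). Cytl1 gave 0 UMIs in the cells with Cd300lg and was at least 35-fold lower.

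Lymphatic markers went opposite ways at the 2 ages. At P1, 4 of 6 were lower in the cells with Cd300lg and 0 higher, with Lyve1 at 10.8, 0 and 1.42 CPM against 70, 11.2 and 67.5 CPM (-3.46 ± 0.39, edgeR adjusted p = 4.3e-10), but the reference cells differ between the ages and the difference was not tested. The largest rises at P1 were those of Hist1h2ap, Timp4, Fam57b, Apoe, Cd36 and Scarb1, from 1.68 to 1.29. Timp4, an inhibitor of matrix proteases, was higher in the members at P60 too (4.98, edgeR adjusted p = 4.3e-20). The immune and erythroid lists had all of their 5 and 5 tested genes higher by edgeR in the cells with Cd300lg at P1 (1 and 3 by DESeq2), and 5 cells with Cd300lg held nearly all haemoglobin UMIs (6571 of 6579 in replicate 1 and 21518 of 21557 in replicate 3). Of 13 dissociation genes 8 were higher and 0 lower by edgeR (6 higher by DESeq2), with a summed level of 7556 to 8437 CPM in the cells with Cd300lg and 4958 to 6597 CPM in those without. Of 5 fibroblast markers 3 were lower by edgeR and 0 by DESeq2 (833 to 2121 CPM against 1415 to 4607 CPM), as were 3 of 5 Schwann cell markers, with 0 by DESeq2 (150 to 579 CPM against 523 to 1534 CPM). The part of these lists in the P1 comparison was not tested.

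Of 8877 genes tested at both ages, 1051 were higher in P60 members and 344 were higher with Cd300lg at P1. Of these, 150 were in both lists, 14.3% of the first and 43.6% of the second. The base of the second share was 1051 of 8877. Over all genes tested at both ages 3.88% were higher at P1. Another 108 genes were higher in P60 members and lower with Cd300lg at P1, 10.3% of the first list, where 4.01% of all genes were lower. Of the 1156 genes lower in P60 members, 102 (8.82%) were lower and 86 (7.44%) higher with Cd300lg at P1. Of the genes higher with Cd300lg at P1, 25% were lower in P60 members. Of those lower with Cd300lg at P1, 30.3% were higher and 28.7% lower in P60 members. The 2 comparisons share no library.

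**Figure D4:**
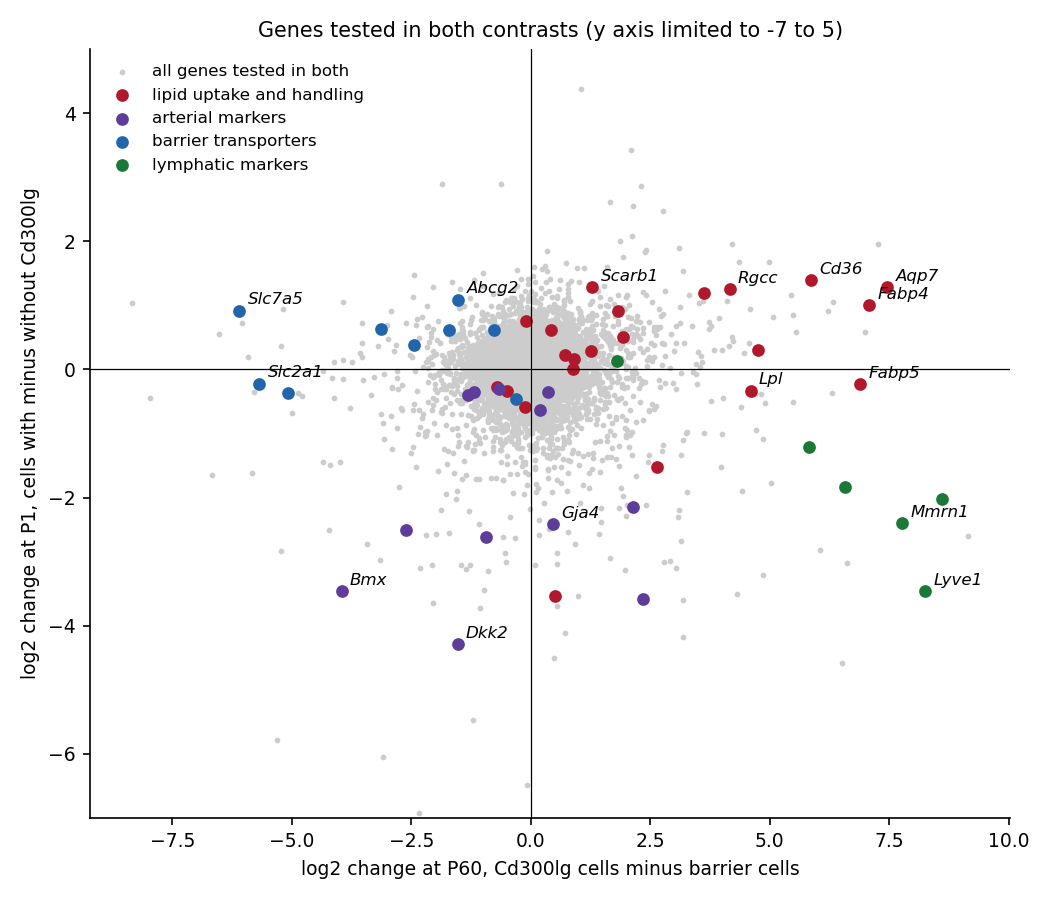
Log2 change of 8877 genes at P60, Cd300lg cells minus barrier cells (x axis), against the change at P1, cells with minus cells without Cd300lg (y axis), with 4 lists coloured and 5 genes outside the y range not shown. Cd36 lies at 5.87 and 1.40, Lpl at 4.60 and -0.33, and Lyve1 at 8.25 and -3.46.

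At P1 the whole rule was passed by 198 cells (68, 66 and 64), 28.6 ± 3.65% of the gate, with a median of 9205.5 UMIs per cell against 4145 in the P60 members. A rule in UMIs admits more cells where libraries are deeper. With every cell thinned to 1500 UMIs, Cd300lg was found in 22 ± 1.79% of the P60 and 18.7 ± 2.59% of the P1 endothelial gate (n = 3 each), a difference of 3.28 percentage points with overlapping libraries and p = 0.2 in a two-sided exact permutation test, whose smallest p here is 0.1. Unthinned, the order was reversed, with 38.6% at P60 and 49.1% at P1. At 2500 UMIs the difference was -0.0438 percentage points (p = 1 in the same exact test). Counting only cells with at least 2 Cd300lg UMIs after thinning to 1500, the limit of the rule, the shares were 8.32 ± 2.13% at P60 and 4.3 ± 0.778% at P1, a difference of 4.02 percentage points without overlap (exact p = 0.1, the smallest possible with 3 against 3).

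Between ages, 1130 of 8866 genes (12.7%) were higher in the P60 cells of the rule and 934 (10.5%) lower by edgeR, with a median change over all genes of 0.01. Without P60 replicate 3 the counts were 1072 and 962. Within the lipid list 9 of 20 were higher at P60, 2 were lower and the median was 0.40, so the members of the pathway moved apart. Lpl had 232, 174 and 261 CPM at P60 and 8.25, 9.97 and 5.76 CPM at P1 (4.73 ± 0.27, edgeR adjusted p = 2.9e-09), and Fabp4 had 7015, 9876 and 7853 CPM at P1 (1.40 ± 0.11, edgeR adjusted p = 7.1e-08). Gpihbp1 was lower at P60, from 2201, 2335 and 2231 CPM at P1 (-0.78 ± 0.13, edgeR adjusted p = 2.9e-04), as was Rgcc (-0.78, edgeR adjusted p = 3.0e-04). Cd36 did not pass the test, with 1131, 1378 and 1135 CPM at P1 (0.38 ± 0.16, edgeR adjusted p = 0.094).

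Antigen presentation genes differed between the ages. Of 13 class I genes 12 were higher at P60, 0 were lower, and the median was 2.18. H2-K1, a class I heavy chain, had 757, 865 and 895 CPM at P60 and 75.7, 73.1 and 77.7 CPM at P1 (3.43 ± 0.16, edgeR adjusted p = 2.1e-10), and B2m, the light chain, changed by 2.05 (edgeR adjusted p = 1.0e-08). The H2 genes are near-identical, and reads may be split among them. All 4 tested class II genes were higher, with Cd74 at 5.5, 1.66 and 2.88 CPM at P1 (5.64 ± 0.42, edgeR adjusted p = 4.2e-08) and H2-Aa at 0 UMIs at P1, which makes it at least 66.1-fold higher at P60. Other P60 cells carried class II RNA too, with a summed list level of 281 to 597 CPM in members, 382 to 544 CPM in fibroblasts and 150 to 173 CPM in barrier cells. After thinning to 1500 UMIs, Cd74 was found in 9.84 ± 3.82% of members, 8.08 ± 0.217% of fibroblasts and 7.97 ± 1.29% of barrier cells of P60 (21.7%, 21.1% and 26.9% unthinned). In the P1 cells it was found in 6 of 198 unthinned (mean over libraries 3.02%). The immune list gave 0 calls of 6 by edgeR between the ages, 0 at an unadjusted p below 0.05 and 0 by DESeq2. Among cells with 3 or more Cd300lg UMIs, however, 5 of 5 tested immune markers were higher at P60 (median 3.30), and without P60 replicate 2 the count was 0 of 6 with 3 at an unadjusted p below 0.05. The part of immune cell RNA in the class II values was not tested.

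Imprinted genes of fetal growth went the other way, with all 11 tested lower at P60 and a median of -3.05. H19 had 6.51, 4.93 and 2.21 CPM at P60 against 1213, 1242 and 724 CPM at P1 (-7.82 ± 0.32, edgeR adjusted p = 4.4e-11), and Mest had 19.5, 13.2 and 8.84 CPM against 1537, 1426 and 1276 CPM (-6.69 ± 0.22, edgeR adjusted p = 3.5e-12). Basement membrane genes were lower in 9 of 14 and higher in 2 (median -0.93). Col4a1 had 384, 373 and 431 CPM against 2094, 2053 and 2019 CPM (-2.41 ± 0.14, edgeR adjusted p = 2.9e-09), and Sparc, a matrix glycoprotein gene, changed by -1.15 (edgeR adjusted p = 1.5e-05). Apln had 4.34, 6.58 and 11 CPM against 239, 171 and 235 CPM (-4.89 ± 0.30, edgeR adjusted p = 4.9e-09).

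Of 11 genes of leukocyte adhesion and recruitment 7 were higher at P60 and 3 lower, and Plvap was higher as well. Plvap had 385, 542 and 371 CPM at P1 against 1368 to 2872 CPM at P60 (2.36 ± 0.23, edgeR adjusted p = 1.1e-06). The chemokine gene Cxcl12 had 395, 409 and 243 CPM at P1 against 1858, 1877 and 2337 CPM at P60 (2.50 ± 0.19, edgeR adjusted p = 4.2e-08), and Lrg1 changed by 4.82 (edgeR adjusted p = 2.0e-08). Of 11 venous markers 9 were higher and 1 lower, and all 7 lymphatic markers were higher. Of 9 tested barrier transporters 5 were higher and 3 lower: Abcg2 rose by 0.91 (edgeR adjusted p = 3.9e-04), whereas Slc2a1, at 135, 93.1 and 77.7 CPM at P1, was lower at P60 (-1.60 ± 0.29, edgeR adjusted p = 5.1e-04), as was Slc7a5 (-3.75, edgeR adjusted p = 6.9e-06).

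The largest rises with age were those of Retnla, Cfd, H2-Aa, Car3, H2-Q7 and Fmo2. Retnla, a secreted resistin-like gene, had 1027, 88.8 and 209.9 CPM at P60 and 0 UMIs at P1 (at least 276-fold higher). Cfd, the adipocyte complement factor adipsin, had 306, 32.9 and 57.4 CPM and 0 UMIs at P1 (at least 82.9-fold higher). Both were uneven among the P60 libraries, and barrier cells and fibroblasts of P60 had 84.9 and 224 CPM of Retnla. Retnla was found in 31.9% of members and in 37.8% of barrier cells, and its source was not tested. The adipocyte list summed to 52.6 to 161 CPM in members at P60 and to 0 to 1.66 CPM at P1, and its 1 tested gene, Car3, was higher. Its part in these values was not tested. The largest falls were those of H19, Plagl1, Sox11, Mest, Tmem255a and Dlk1, from -7.82 to -6.12. Fibroblast and Schwann cell genes also moved between the ages, with 2 of 6 fibroblast markers higher and 3 lower and 2 of 3 tested Schwann cell markers lower at P60 by edgeR (1 by DESeq2). The summed Schwann level was 95 to 165 CPM at P60 and 150 to 586 CPM at P1, so that the ages overlapped. All 3 tested mural genes, Tagln, Kcnj8 and Acta2, were higher at P60 (median 3.12), and the mural list summed to 668 to 829 CPM at P60 and 37.1 to 109 CPM at P1. Of 14 dissociation genes 6 were higher and 2 lower at P60. The part of these lists was not tested.

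**Figure D5:**
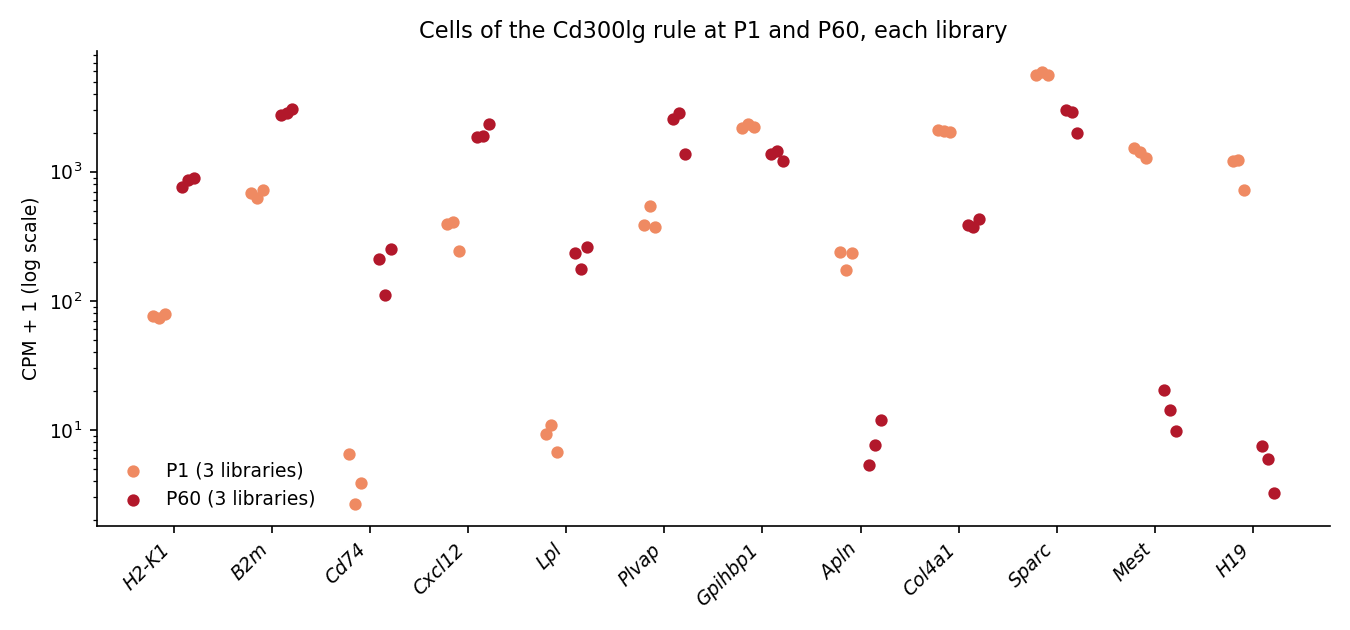
Level as CPM + 1 on a log axis of 12 genes in the cells of the Cd300lg rule, with 1 point per library and 3 libraries at each of P1 and P60. H2-K1 is 73.1 to 77.7 CPM at P1 and 757 to 895 CPM at P60, and H19 is 724 to 1242 CPM at P1 and 2.21 to 6.51 CPM at P60.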

How the data were processed

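The data were UMI counts per gene and barcode from 6 sciatic nerve libraries. Per the labels they were made with the Chromium Single Cell 3' v2 kit, and the submitters' processing notes name Cell Ranger 2.0.2 and GRCm38.p5, whereas the study's methods name a human build. The deposited counts are raw UMI counts after Cell Ranger's own cell calling, with no normalization by the authors and no pooling of libraries. Strand use in counting was not given in the sources used here. Of 41605 gene identifiers 41435 (99.6%) were found in GENCODE M21 (GRCm38), which gave the coordinates. Scarb1, Slc2a1, Ackr1, Col4a1, Mest, H19, Reln, Tjp1 and Tcf7 overlap another gene on the same strand.

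Barcodes with 500 to 5000 genes were kept, members were found by the rule, and their counts were summed per library and population. Genes with at least 30 UMIs over the sums compared were tested with edgeR 4.0.16 (quasi-likelihood, TMM, Benjamini-Hochberg) in R 4.3.3, with the library as a block where both populations came from the same libraries, since they share a suspension. The 11 genes of the rules were left out of the tests. DESeq2 1.42.0, other filters and scalings, thinned cells and left-out libraries were alternatives. On simulated counts for the comparison of members with barrier cells (10396 genes) the fit called 82.6% of genes changed by a log2 of 2 and 30.6% of those changed by 1. The changed genes were drawn only from those with at least 100 UMIs, so these shares do not cover genes with fewer. The simulated counts had a fixed spread and no library effect. Shares of cells were compared by an exact permutation test over libraries with scipy 1.17.1. Libraries are separate suspensions of pooled animals. Named genes were, beside the list genes, the 12 largest changes in each direction among called genes outside the rules with the same sign in every library pair (between ages, groups that do not overlap) and a mean of at least 50 CPM in the higher group (6 in the P1 and age comparisons); mitochondrial, ribosomal, haemoglobin, sex-linked marker and predicted genes were not ranked. Members, lists and tests were chosen with earlier results of these data known. 1 gene of the Schwann cell list is not reported here. The promoter table, from RefSeq, held none of Cd300lg, Gpihbp1, Fabp4, Plvap and Lpl.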

Additional observations from a re-analysis of the deposited data

How the results depend on the processing

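Members against barrier cells gave 1219 higher and 1348 lower genes. DESeq2 gave 619 and 586, thinned cells 509 and 597, strict marker limits 234 and 281, no replicate block 792 and 717, and left-out libraries 966 to 1055 and 1034 to 1127. Between the ages, 1130 and 934 became 368 and 284 with thinned cells and 127 and 112 with strict limits, DESeq2 gave 593 lower, and left-out libraries gave 846 to 1072 and 659 to 962. At P1, 354 and 391 became 82 and 99 by DESeq2, 54 and 62 with thinned cells and 10 and 14 with strict limits. There, 257 were lower without lymphatic-marked cells and 259 with no replicate block, and left-out libraries gave 203 to 321 and 215 to 347. Strict limits left 8, 20 and 30 members and thinning removed most UMIs; what else moved these counts was not tested. Library size alone, added after seeing the data, gave 1480 and 1118, 1202 and 833, and 268 and 499.

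The difference in share of Cd300lg cells, 3.28 points, was -10.6 without thinning and -0.0438 at 2500 UMIs, and 2.1 to 4.67 with libraries left out. Flt4 reversed to -0.16 without lymphatic-marked cells, but its own UMIs helped to choose the cells left out, so this value is no test. Cd74 reversed to -0.62 with strict limits. Of 381 values of the 24 genes named by size against barrier cells, 380 kept direction and call. So did 832 of 839 for the list genes described. At P1, 158 of 161 and 274 of 293 did, and between the ages 192 of 192 and 454 of 460. Settings in which a gene was not tested were not counted. By gene, 14 of the 22 list genes at P1 lost the call or reversed in at least 1 setting. The count was 6 of 54 for members against barrier cells and 5 of 28 between the ages. With strict marker limits, 15 of the genes described lost the call at P1 and 9 kept it.

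Same-numbered P60 and P1 libraries did not deviate together (correlations -0.039, -0.3 and -0.11), and the other pairs gave -0.15 to 0.26. With 3 libraries per age this check cannot exclude a pairing by number. A replicate block gave 1099 higher and 910 lower.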
